A study of Mus musculus with 6 samples.

Results

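The Zfp genes are the protein-coding genes of the mm9 GENCODE annotation whose symbol is Zfp followed by a number. There were 344 of them, under 340 symbols, among 22380 protein-coding genes, and the rule for them uses the gene's name and no measured value. YTHDC1 binding to RNA had been mapped by LACE-seq, in which UV light crosslinks a protein to RNA, the protein is precipitated by an antibody, and reverse transcription stops at the crosslinked nucleotide. The ASC-48 hr libraries came from satellite cells activated by 48 hr of culture (2 biological samples, B1 and B2, with libraries T1 and T2 made as technical replicates of either). The C2C12 libraries came from a mouse myoblast line grown in serum (replicates 1 and 2, which the labels number as biological and the study's methods call technical), from 10 times as many cells, so cell type, cell number and sequencing cannot be told apart between them. All 6 libraries were labelled WT, with no library without antibody among the files used. The study sorted satellite cells by a fluorescent reporter, GFP or EYFP, from genetically modified mice. Which of these mice gave the ASC libraries is not stated in its methods.

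Most Zfp genes encode C2H2 zinc finger proteins, in which a run of small zinc-binding fingers reads DNA and, in some members, RNA. Neighbouring fingers are joined by a conserved linker, TGEKP or TGERP, and in the largest subfamily many fingers are encoded back to back in a single long last coding exon, with a KRAB box, the part that recruits silencing machinery, in short exons before it. Such genes arose by duplication and lie in clusters, so stretches of their sequence recur. YTHDC1 is the nuclear reader of N6-methyladenosine (m6A), a mark placed on mRNA in long internal exons and near the stop codon. Here a last coding exon was called long from 500 coding nt on, which 292 Zfp genes and 5393 other genes had. Peaks were counted for a gene only on the strand opposite to it, taken as the strand the libraries give for its RNA. It held 96.4% of the peaks in Zfp genes that both C2C12 libraries listed. The strands were less distinct in ASC. Its libraries (B1 T1, B1 T2, B2 T1, B2 T2) listed 24, 26, 32 and 64 peaks on the opposite strand and 17, 18, 12 and 29 on the strand of the gene.

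A peak was called shared in C2C12 where both libraries listed it, and 264 shared peaks lay in Zfp genes. The first 5 by mean reads of the 2 libraries are shown, since they show which RNA stretches carried the strongest signal, as mm9 sequence 5′ to 3′ on the strand of the gene. Capitals mark a match to GGAC or to a form of the m6A consensus that ends in ACT. Inner coding exon here means any coding exon other than a long last one, first and short last coding exons included. Peaks of Zfp516, Zfp697 and Zfp865 tied with the last of the 5 at 15.5 mean reads and are not shown.

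Zfp282 (chr6:47855021-47855040, long last coding exon): gagaagagcttcaactgcca
Zfp740 (chr15:102044441-102044460, 3′UTR): cttcccacccagacctgaag
Zfp462 (chr4:55025681-55025700, inner coding exon): cctgagtttgatgtcttttc
Zfp62 (chr11:49029061-49029080, long last coding exon): GGACTtttcggagtagctcc
Zfp318 (chr17:46541101-46541120, intron): cagacacatccacatgaggc

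The Zfp282 peak held 19 and 20 reads per 20-nt bin in C2C12 replicates 1 and 2 (mean 19.5 ± 0.707, SD, n = 2), and that of Zfp740 held 20 and 19. The Zfp462 peak held 17 and 19 reads. In Zfp62 the replicates stood further apart, at 12 and 20 reads (16.0 ± 5.66), and in Zfp318 they were 15 and 16. Each of these sequences occurs once in the genome. The Zfp318 peak is not on Zfp318 exons: it lies in an intron inside a gene annotated as 7SK RNA on the same strand, so its reads cannot be assigned to the Zfp318 transcript. Most shared peaks were far lower: the median over all 264 was 7.5 reads per bin, beside 8.0 over all C2C12 shared peaks, and 52 of the 264 reached a mean of 10 reads.

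Of the 344 Zfp genes, 88 (25.6%, 95% interval 21.1 to 30.5%) held at least 1 C2C12 shared peak, beside 21.8% of all protein-coding genes. The interval of the Zfp share just reached that of genes in general. In the single libraries the gap was wider: replicate 1 listed 621 peaks in 150 Zfp genes (43.6%, beside 33.1% of all protein-coding genes) and replicate 2 listed 706 peaks in 166 (48.3%, beside 36.9%). These peaks were 1.03% and 0.981% of all peaks of the libraries. Both libraries listed a peak in 121 Zfp genes, 29 had one only in replicate 1, 45 only in replicate 2, and 149 in neither. Of the replicate 1 peaks in Zfp genes, 42.5% (264 of 621) were found again in replicate 2, and the share was higher for peaks with more reads, from 37.1% of 547 below 10 reads to 82.2% (60 of 73) at 10 to 19 reads. The same shares over all peaks were 48%, 40.7% and 81.9%.

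**Figure D1:**
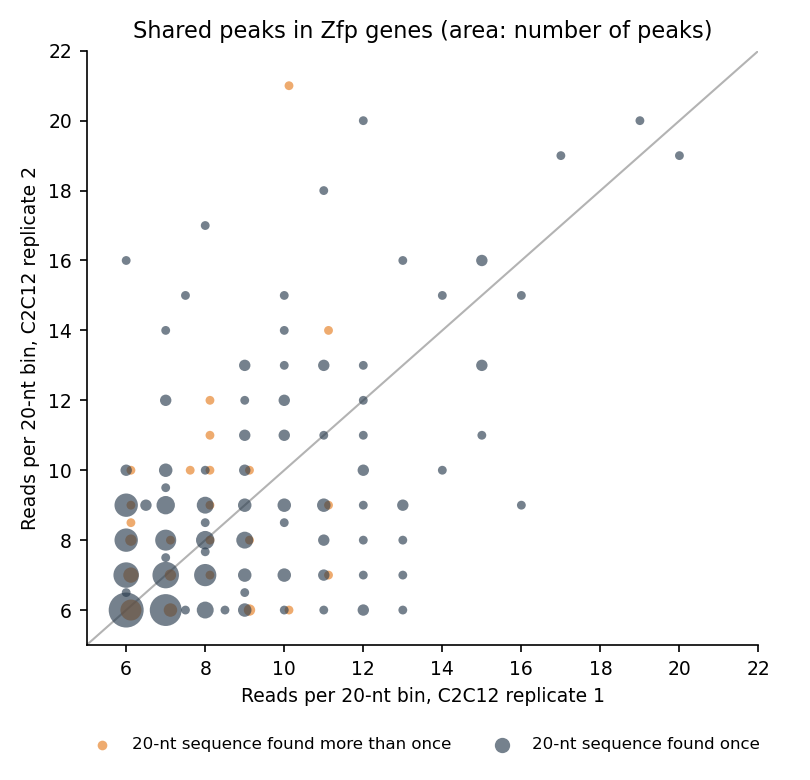
Reads per 20-nt bin in C2C12 replicate 1 (x axis) and replicate 2 (y axis) for the 264 shared peaks in Zfp genes; the area of a point grows with the number of peaks at that pair of values, the grey line marks equal reads, and orange points are shifted slightly to the right. Most peaks sit at 6 to 10 reads in both libraries, Zfp282, Zfp740 and Zfp462 stand apart near 20, and the peaks whose sequence recurs in the genome lie mostly among the low ones, with the 10 and 21 reads of a Zfp697 peak as the highest.

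The shared peaks were uneven among genes: 41 Zfp genes had 1, 12 had 2, and 35 had 3 or more. The 10 genes with most shared peaks held 96 of the 264 (36.4%). Zfp740 led with 15 shared peaks, from 20 peaks in replicate 1 and 22 in replicate 2, and none of the ASC libraries listed a peak in it. Of its 15 peaks, 9 lay in the 3′UTR, and apart from the high one shown above they ran from 6.0 to 10.5 mean reads. Zfp516, a transcription factor of brown fat, followed with 13 shared peaks, from 35 and 46 in the replicates, of which 7 lay in introns and 4 in inner coding exons, and only ASC B2 T2 listed peaks in it (3). Zfp292 held 12 shared peaks (21 and 24 in the replicates) and Zfp451, a SUMO ligase, 10 (18 and 25).

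Zfp462, Zfp703, Zfp281 and Zfp609 had 8 shared peaks each. In Zfp462, a chromatin-associated protein, 7 of the 8 lay in inner coding exons, as did 7 of the 8 in Zfp609, whose transcript in myoblasts also gives a circular RNA that reads from linear RNA cannot be told from here. In Zfp281, a regulator of pluripotency genes, 7 of the 8 lay in the long last coding exon, and in Zfp703, a corepressor, 6 did. Zfp318, needed for IgD expression in B cells, and Zfp865 completed the list with 7 each. No ASC library listed more than 4 peaks in any of these 10 genes, which were picked for their C2C12 peaks, and of the 4 in Zfp318 in B2 T2, 3 lay inside the 7SK gene.

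**Figure D2:**
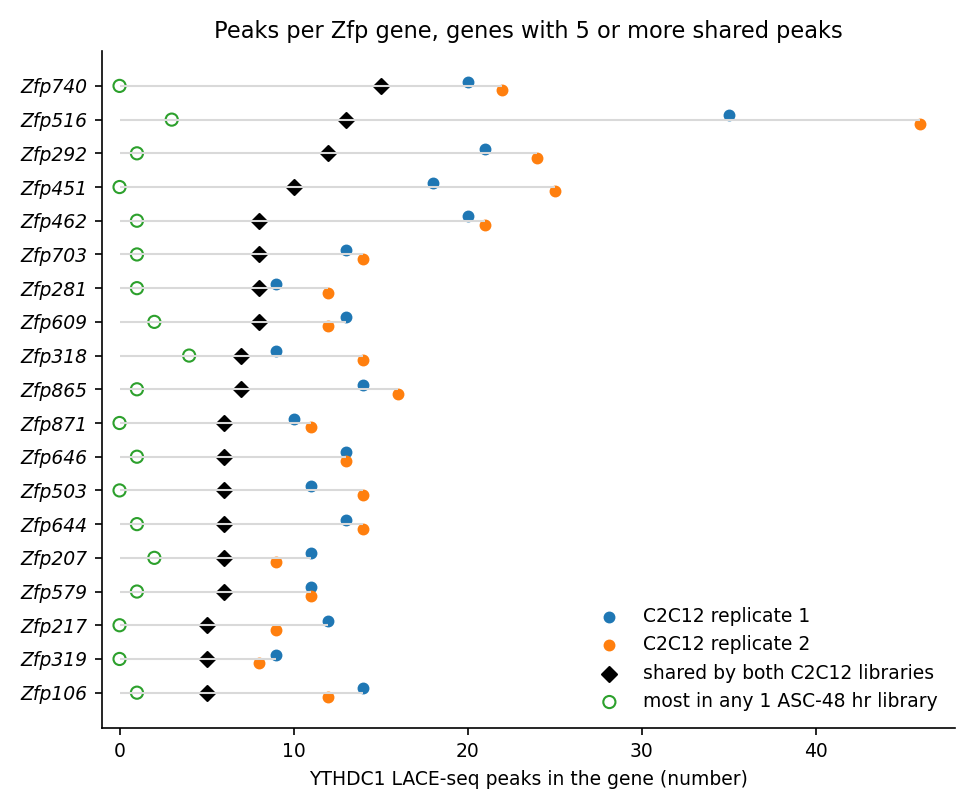
Number of YTHDC1 peaks (x axis) in each of the 19 Zfp genes with 5 or more C2C12 shared peaks (y axis); filled circles are the 2 C2C12 libraries, diamonds the peaks both listed, and open circles the highest number in any 1 ASC-48 hr library. Zfp516 has most peaks per library (35 and 46), Zfp740 most shared peaks (15), and the ASC libraries reach at most 4, in Zfp318.

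By gene part, 100 of the 264 shared peaks in Zfp genes (37.9%, 32.0 to 44.0%) lay in a long last coding exon, 60 in other coding exons, 55 in introns, 39 in 3′UTRs, 6 in 5′UTRs and 4 in non-coding exons. Among genes that had a long last coding exon, it took 54.3% of the Zfp peaks (100 of 184, 46.9 to 61.7%) and 43.6% of the peaks of other genes (2272 of 5216, 42.2 to 44.9%), so the intervals did not overlap. The exon was also longer in Zfp genes, with a median of 1423 coding nt against 936. Counted per length the order turned round: the long exons of Zfp genes held 0.236 shared peaks per kb (0.192 to 0.287, 100 peaks over 424.0 kb) and those of other genes 0.393 (0.377 to 0.410). Of the 292 Zfp genes with such an exon, 46 (15.8%) had a shared peak in it, beside 12.5% of all genes with such an exon. Introns took 19% in Zfp genes and 19.6% in other genes with a long exon. The intervals here are exact and cover counting error only, and peaks of 1 gene are not independent. Transcript levels were not analysed here, so peaks per gene or per kb cannot be told apart from the amount of RNA.

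**Figure D3:**
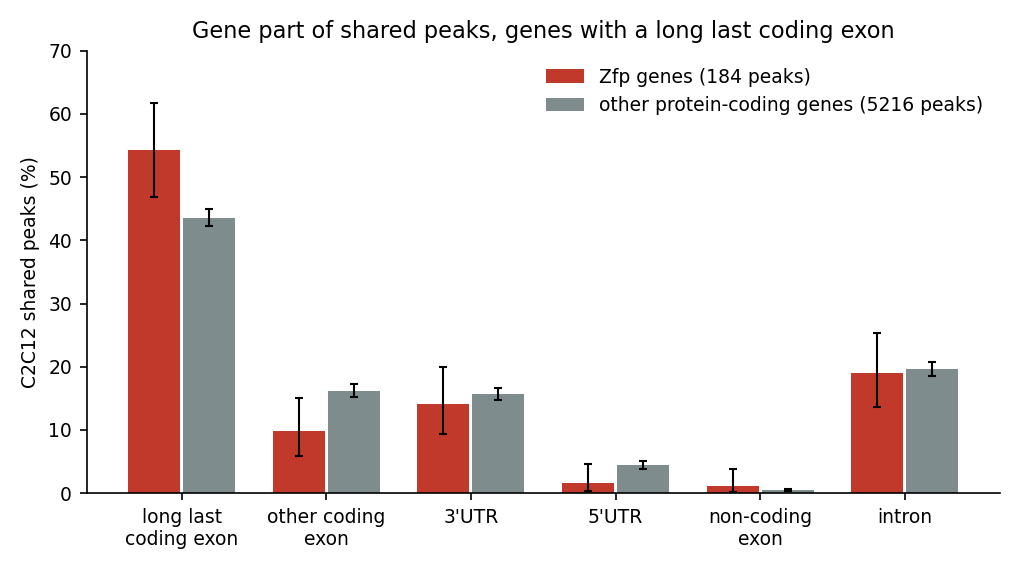
Share of C2C12 shared peaks (y axis, %) by gene part (x axis) in Zfp genes (184 peaks) and other protein-coding genes (5216 peaks), both limited to genes with a long last coding exon; bars are shares and error bars exact 95% counting intervals. The long last coding exon takes 54.3% in Zfp genes and 43.6% in the others, while introns take 19% and 19.6%.

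Within the family, the counts of shared peaks differed with the number of finger linkers in the translated coding sequence, with transcript levels not analysed. Of the 344 genes, 160 had 5 or more linkers (up to 18), 101 had 1 to 4 and 83 had none. A C2C12 shared peak was found in 18.1% (12.5 to 25.0%) of the genes with 5 or more linkers, in 29.7% (21 to 39.6%) of those with 1 to 4, and in 34.9% (24.8 to 46.2%) of those with none. The difference was larger per length of long last coding exon. Genes with no linker held 0.701 shared peaks per kb (0.509 to 0.941, 44 peaks), genes with 1 to 4 held 0.319 (0.222 to 0.444, 35 peaks), and genes with 5 or more held 0.0835 (0.0517 to 0.128, 21 peaks over 251.6 kb). Genes with other names, a long last coding exon and fewer than 5 linkers held 0.401 (0.385 to 0.418). The intervals of the 3 Zfp classes did not overlap, but they treat peaks as independent. The 44 peaks of genes without linkers lay in 14 of 44 genes, with 7 in Zfp292 and 6 each in Zfp503 and Zfp703. Both libraries gave the same order of the 3 classes, with 1.26, 0.593 and 0.195 peaks per kb in replicate 1 and 1.51, 0.657 and 0.254 in replicate 2.

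The 97 genes with other names, a long last coding exon and 5 or more linkers held 0.0602 shared peaks per kb (0.0260 to 0.119), but only 25.3% of the bins in their exons, and 2 of their 8 peaks, have a sequence that occurs once in the genome. Reads from recurring sequence can be spread or lost in mapping, and 72.8% of the 20-nt bins in the exons with 5 or more linkers occur once in the genome, against 90.9% in Zfp exons without linkers. When only such peaks and such bins were counted, the densities were 0.0940, 0.362 and 0.782 per kb, in the same order. Genes with no RNA in C2C12 can hold no peak, so the densities were also taken over genes that had a shared peak elsewhere. They were 0.277 (0.12 to 0.546, 19 genes) with 5 or more linkers, 1.09 (0.705 to 1.61, 18 genes) with 1 to 4 and 1.33 (0.895 to 1.89, 10 genes) with none. Several genes of the first class entered only through intron peaks of recurring sequence. When the other peak had to have a sequence found once and to lie under no other gene of the same strand, a choice made after seeing the data, the densities were 0.641 (0.277 to 1.26, 8 genes), 0.987 (0.594 to 1.54, 16 genes) and 1.39 (0.921 to 2.0, 9 genes). The 3 intervals then overlapped, in the same order. Without this rule the interval of the genes with 5 or more linkers lay below those of the other classes. Overlap of intervals is not a test. With that rule, genes with other names and fewer than 5 linkers held 2.0 per kb (1.89 to 2.11, 538 genes), above all 3 Zfp densities. Among genes with a placeable peak elsewhere, a difference between linker classes was thus neither shown nor excluded, with 8 to 16 genes a class. The part of transcript level in these differences was not tested.

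**Figure D4:**
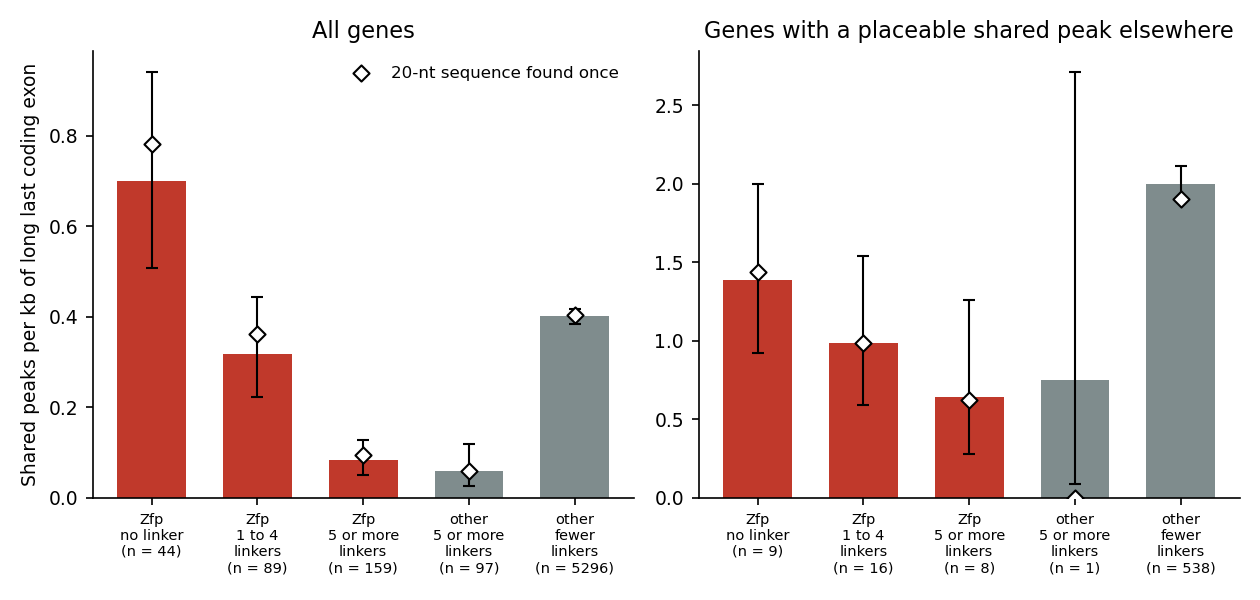
C2C12 shared peaks per kb of long last coding exon (y axis, separate scales) by number of finger linkers (x axis), for all genes (left) and for genes with a shared peak elsewhere whose sequence is found once and that lies under no other gene of the same strand (right); bars are densities with exact 95% Poisson intervals, n is the number of genes, and diamonds count only peaks and bins whose 20-nt sequence occurs once. Zfp genes fall from 0.701 to 0.0835 peaks per kb with more linkers at left, and other genes sit at 0.0602 with 5 or more linkers and 0.401 with fewer. At right the intervals of the 3 Zfp classes overlap, and other genes with fewer linkers sit at 2.0.

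Among the genes with 5 or more linkers that did carry peaks, Zfp62 had most in its long exon: 4 shared peaks in an exon of 2724 nt with 12 linkers. They held 12 and 20, 8 and 9, 6 and 7, and 9 and 13 reads. Zfp871, a KRAB gene with 5 linkers, had 3 there besides 2 in its 3′UTR and 1 in an intron. For all 21 such peaks, 8 (38.1%, 18.1 to 61.6%) lay within 48 nt of a linker start, where 45.9% of the bases of these exons lie. With 21 peaks no preference for or against linkers was detectable. A KRAB stretch was found in 116 Zfp genes, of which 16 (13.8%, 8.09 to 21.4%) had a shared peak, against 72 of the 228 others (31.6%, 25.6 to 38%). The pattern used for KRAB missed at least Zfp57 and Zfp445, which are known to carry one. The 228 others are thus not a set without KRAB. Because 75 of the 116 also had 5 or more linkers, KRAB and linkers were not separate splits. Along the long exon itself the 100 Zfp peaks were spread evenly, with 30, 35 and 35 in its 3 equal parts from 5′ to 3′.

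The 5 genes with most shared peaks per kb of long exon, among those with at least 3 there, were Zfp703 (3.93 per kb), Zfp503 (3.68), Zfp451 (2.68), Zfp281 (2.61) and Zfp579 (2.37). Of these, 4 had no linker and Zfp281 had 1. The exon counted is the last coding one of any coding transcript, so it need not be last in all of them. In Zfp451 and Zfp579 another coding exon with a shared peak lies downstream of it (chr1:33833201-33833220 and chr7:4944781-4944800). Zfp703 and Zfp503 are paralogs of a corepressor family. Zfp703 also had 2 shared peaks further downstream, in its 3′UTR. Within the long exon, the last peaks of Zfp703 and Zfp503 lay 26 and 31 nt before its coding end. These peaks shared a run of 11 nt, shown in capitals, which holds GGAC and AGACT.

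Zfp703 (chr8:28090521-28090540): gtatGGACAGAGACTagcct
Zfp503 (chr14:22804141-22804160): gccctctacGGACAGAGACT

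The Zfp703 peak held 10 and 15 reads and the Zfp503 peak 6 and 6. Each 20-nt sequence occurs once, so the reads of either gene could be placed. This pair was picked after its values were seen, and runs of 10 or 11 nt also joined peaks of unrelated genes, such as Zfp740 and Zfp598 (11 nt). Within 20 nt of a shared peak, on the strand of the gene, GGAC stood in 19.3% of Zfp peaks (14.7 to 24.6%) and 20% of peaks in other genes, and GGACT in 7.20% and 5.98%. GAACT was found in 8.33% and 7.37%, AGACT in 6.44% and 5.27%, and AAACT in 4.17% and 4.11%. Each motif was searched on its own, so a GGACT also counts as GGAC, and on the other strand GGAC stood in 22.3% of Zfp peaks and 24.5% of others. The motif shares of Zfp peaks and other peaks were within the counting error of the Zfp peaks.

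**Figure D5:**
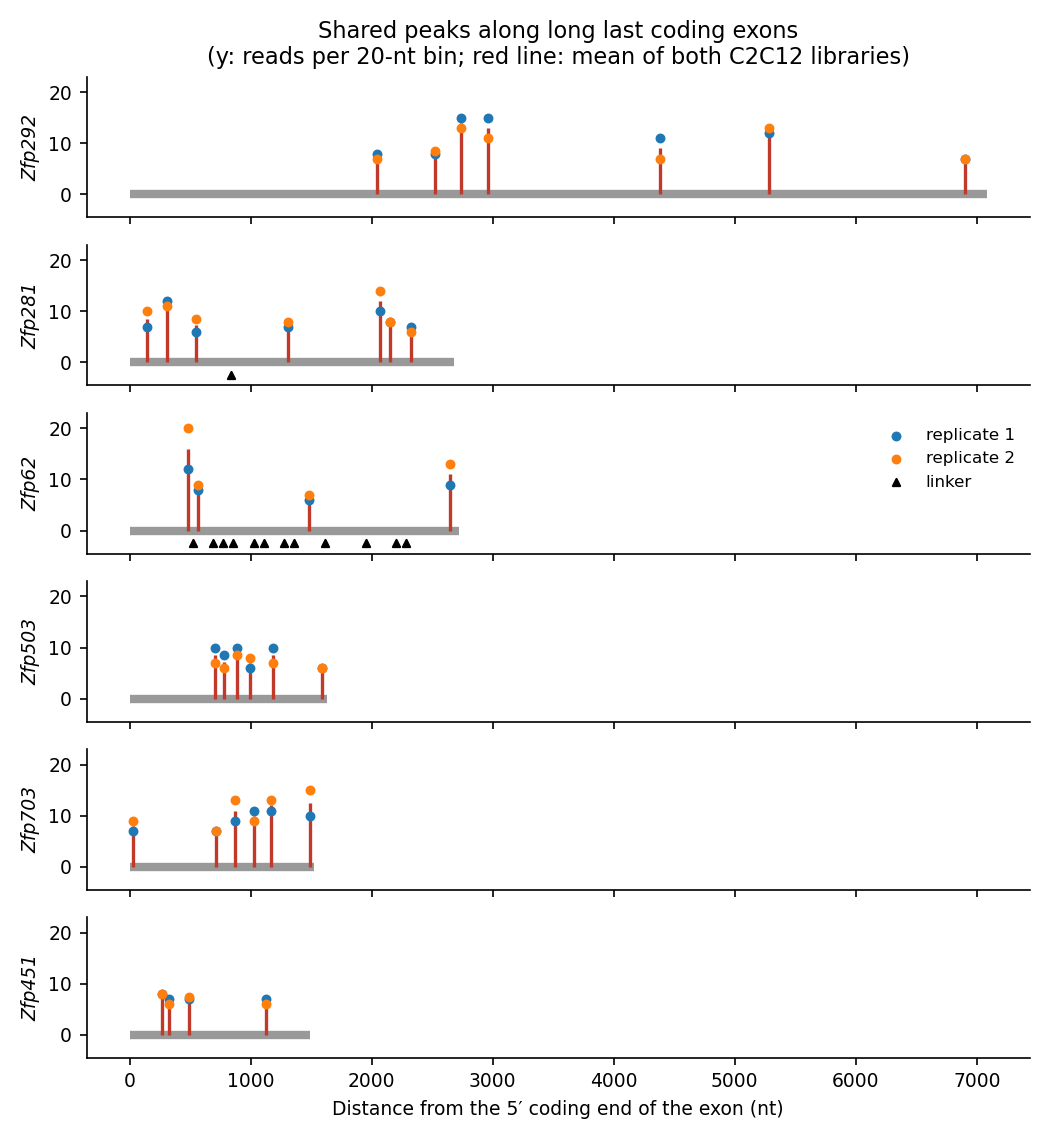
Position of C2C12 shared peaks (x axis, distance in nt from the 5′ coding end) along the long last coding exons (grey bars) of 6 Zfp genes; circles are reads per 20-nt bin in C2C12 replicates 1 and 2 (y axis), red lines their mean, and triangles linker starts. Zfp292 has 7 peaks over 7083 nt with no linker, Zfp62 has 4 peaks over 2724 nt with 12 linkers, and Zfp503 and Zfp703 each have a peak close to the 3′ end. The Zfp451 exon is not the last coding exon of every transcript of that gene.

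Zfp292 had the longest of these exons (7083 nt), and its 7 peaks there included 15 and 13 reads at chr4:34756541-34756560 and 15 and 11 reads at chr4:34756321-34756340. Its 4 intron peaks were lower, at 6 to 8 mean reads, and the sequence of 3 of them recurs from 120 to 36731 times in the genome.

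Recurring sequence was mostly an intron matter. Of the 264 Zfp peaks, 225 (85.2%, 80.4 to 89.3%) had a 20-nt sequence found once, 13 had it 2 times, 11 had it 3 to 10 times and 15 more often. In introns 27 of 55 peaks (49.1%) recurred, against 12 of 209 elsewhere (5.74%), and in the long last coding exons only 6 of 100. In other genes the long exon peaks recurred more often (26.6%) and the intron peaks less often (33.6%) than in Zfp genes, as descriptions without a test. By linker class, 29 of 48 peaks (60.4%) in genes with 5 or more linkers were found once, 91 of 97 (93.8%) with 1 to 4, and 105 of 119 (88.2%) with none. Copy positions were not looked up for the most frequent sequences, those of peaks in Zfp292 (36731 copies) and Zfp335 (46702 copies). Among the other peaks, 12 had a copy of the sequence in another Zfp gene. Only 2 pairs among them were neighbours that both carried a shared peak on the same stretch, shown here with the common run in capitals.

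Zfp235 (chr7:24926481-24926500, long last coding exon): ctTCAACCTCCACAGCCATC
Zfp108 (chr7:25046221-25046240, long last coding exon): TCAACCTCCACAGCCATCag
Zfp960 (chr17:17203621-17203640, intron): cCCCAGTTACCCTTTACAGT
Zfp97 (chr17:17260761-17260780, intron): CCCAGTTACCCTTTACAGTg

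The peaks of Zfp235 and Zfp108 held 7 and 6 reads in both genes, and their run of 18 nt stands in sequences found 5 times, Zfp114 included. Those of Zfp960 and Zfp97 held 9 and 6 and 9 and 8 reads, with a run of 19 nt. Because a read could be placed at up to 10 positions, peaks of such a pair may rest on the same reads, and which gene was bound cannot be told apart. Zfp808, with 18 linkers, had 4 shared peaks, all in introns and all with 2 to 8 copies. With recurring sequences removed from each list before peaks were matched, 74 Zfp genes kept a shared peak, from 224 peaks. The share of all protein-coding genes under this filter was not counted.

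Another 17 of the 264 peaks overlapped a second annotated gene, on the strand of the Zfp gene for 7 and on the other strand for 12. In 4 of them that gene was a small or other non-coding RNA on the same strand: the 7SK gene inside Zfp318 (15 and 16 and 15 and 13 reads), CT025673.1 inside Zfp949 (10 and 12 reads) and SNORA3 inside Zfp828 (6 and 8 reads). These intron peaks cannot be assigned to the Zfp transcript.

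The genes were also read by role, from 3 lists chosen with earlier results of these data known, whose counts stand beside the 25.6% of all Zfp genes and 21.8% of all protein-coding genes with a C2C12 shared peak. Of the 6 genes listed for silencing imprinted loci and retroelements, 2 held C2C12 shared peaks: Zfp445, which keeps imprints, had 2 (6 and 4 peaks in the replicates) and Zfp568, which silences a placental Igf2 promoter, had 3 (8 and 8 peaks). Zfp57, Zfp708 and Zfp809 had no peak on the opposite strand in any library, and Zfp932 had an ASC shared peak only. The highest Zfp568 peak held 16 and 9 reads.

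Of the 7 genes listed for RNA binding or processing, 6 were found under that name and 4 held shared peaks. Zfp207, a spindle and splicing factor, had 6, Zfp106, an RNA-binding protein needed in motor neurons and muscle, had 5, Zfp830 had 2 and Zfp36 (tristetraprolin, which speeds decay of AU-rich mRNAs) had 1. The 4 shared peaks of Zfp106 with another gene on the other strand lay under the lincRNA Gm17675. Zfp326 and Zfp346, a double-stranded RNA-binding protein, had no shared peak.

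Of the 15 lineage and stem cell regulators, 10 held C2C12 shared peaks. Besides Zfp516, Zfp281 and Zfp703 these were Zfp503 (6), Zfp217 (5), Zfp148 (4), Zfp384 (3), and Zfp219, Zfp238 and Zfp335 (1 each). The Zfp335 peak (6 and 6 reads) is intronic and its sequence occurs 46702 times, so it cannot be placed on that gene. Zfp238, a MyoD target that acts in muscle differentiation, was listed with 4 peaks in replicate 1 and 1 in replicate 2. The pluripotency marker Zfp42 had 2 peaks in replicate 1 and none in replicate 2. Zfp423 and Zfp521, which act against each other in fat cell commitment, had no shared C2C12 peak (nor had Zfp143 and Zfp467), and each ASC library listed 1 or 2 peaks in them, at differing positions between B1 and B2.

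In ASC-48 hr, Zfp peaks were few: 24 and 26 in B1 T1 and T2, and 32 and 64 in B2 T1 and T2, in 22, 23, 28 and 52 genes. That was 6.4%, 6.69%, 8.14% and 15.1% of Zfp genes, beside 7.81%, 9.98%, 9.1% and 18.5% of all protein-coding genes. The peaks made up 0.242% to 0.404% of the peaks of a library, below the 0.981% and 1.03% of the C2C12 libraries. Other protein-coding genes also held a smaller part of the peaks in ASC. They held 2125, 3001, 2810 and 7024 there, of 8115, 10759, 7925 and 19448 in all. In the C2C12 replicates they held 42431 and 46729, of 60540 and 71992. How much of the difference is particular to Zfp genes was not tested. Introns held 87.5% and 88.5% of the Zfp peaks in B1 (21 of 24 and 23 of 26) and 59.4% and 60.9% in B2, against 26% (162 of 621) and 30.4% in C2C12. The same shift was seen in other genes, whose intron share was 56.9% to 81.6% in ASC and 37.8% and 43.2% in C2C12. In all, 75 Zfp genes had a peak in some ASC library, 43 of them in 1 library and 7 in all 4, and 36 of the 75 also had a C2C12 shared peak. These counts were not made over all protein-coding genes, so the overlap has no background to be read against.

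A peak was called ASC shared where both technical replicates of both biological replicates listed it, and 5 Zfp genes (1.45%, 0.474 to 3.36%) held 1, beside 2.46% of all protein-coding genes. Another 4 ASC shared peaks lay on the strand of a Zfp gene itself, where C2C12 had 10 beside its 264. Only 1 of the 5 lay in an exon. Those that fit in 1 bin are given because each has a single sequence behind it, with capitals as for the first set.

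Zfp932 (chr5:110426481-110426500, intron): AGACTgttttattgagtgca
Zfp185 (chrX:70237441-70237460, intron): cttgttggcttgccggcggg
Zfp944 (chr17:22484881-22484900, intron): cccccccttttttttttttt
Zfp831 (chr2:174472261-174472280, coding exon): agctggggataccgcccaag

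The Zfp932 peak held 8 and 8 reads in the B1 libraries and 8 and 7 in those of B2 (7.75 ± 0.5, SD, n = 4), and no C2C12 library listed it. Zfp932 is a zinc finger protein known to silence endogenous retroviruses, and elsewhere in the gene C2C12 replicate 1 listed 2 peaks and replicate 2 none. The Zfp185 peak held 5, 7, 6 and 7 reads and 6 in C2C12 replicate 1, and it lies inside the annotated Mir2137 on the same strand. The Zfp831 peak, the only one in an exon, held 6, 6, 5 and 5 reads and was in no C2C12 list. The Zfp944 peak held 6 reads in all 4 and 6 and 7 in C2C12, but its sequence, C followed by T on the strand of the gene, occurs 346 times in the genome and lies on a run of G on the strand of the reads. In Zfp949 a wider shared peak (8, 7, 5 and 6.2 reads, and 7 in C2C12 replicate 2) lies inside CT025673.1. So 2 of the 5, those of Zfp932 and Zfp831, had neither a recurring sequence nor another annotated gene over them, and neither was seen in C2C12.

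Across the whole series the libraries differed in size: the ASC libraries listed 7925 to 19448 peaks and the C2C12 libraries 60540 and 71992, with the lowest listed peak at 4 to 6 reads. Depth in total reads is unknown from lists of peaks, so absence of a Zfp peak in ASC means that it was not detectable at this depth. Of the myogenic markers, Des held 9 C2C12 shared peaks, Itga7 11, Cdh15 3 and Myf5 2, and Myod1 had 5 and 3 peaks but none shared. Pax7 peaks (1, 1, 2 and 10) were in the ASC libraries with at most 1 in C2C12. The ASC libraries also listed peaks in Des (0, 3, 1 and 4), Itga7 (0, 4, 5 and 8), Myod1 (0, 2, 1 and 6) and Myf5 (0, 0, 1 and 0). No myogenic marker had an ASC shared peak. Of the markers of other cells, Pdgfra had 1 C2C12 shared peak and none in ASC, and Ptprc, Cdh5 and Lyz2 had none, as had Myog. Pecam1 had 1 peak in each of the 6 libraries and was the only marker with an ASC shared peak.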

How the data were processed

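YTHDC1 LACE-seq peak lists of 4 ASC-48 hr and 2 C2C12 libraries were used. The authors trimmed reads (cutadapt 1.15), removed those matching pre-rRNA, aligned the rest to mm9 (Bowtie 1.2.3) at up to 10 positions per read, and called peaks per library with Piranha in 20-nt bins. The deposited signal is reads per bin, unnormalised (a mean for wider peaks), and the deposited p-value is unadjusted, at most 0.000995. Treatment of duplicate reads is not given in the sources used here.

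Overlaps, gene parts and copies (occurrences of a 20-nt sequence on either strand) were computed in Python 3.11.15 (pandas 2.3.3, scipy 1.17.1, pysam 0.24.0) with NCBIM37 and GENCODE vM1, and 19 of 19 checks on simulated data were correct. Gene part followed the order long last coding exon, coding exon, 3′UTR, 5′UTR, non-coding exon, intron, over all coding transcripts. Shares have exact Clopper-Pearson and densities exact Poisson 95% intervals. Nothing was tested between cell types. KRAB stretches were found by a pattern in the translation. Named genes were the 10 with most shared peaks, those of the 5 highest peaks, those with an ASC shared peak, the 5 densest long exons, and 3 role lists. Members and lists were chosen with earlier results of these data known. Results under other settings are given at the end.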

Additional observations from a re-analysis of the deposited data

Results flagged for a closer look

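Of 10 sets of 4 ASC values checked, 1 held a value far from the others: in the ASC shared peak of Zfp932 the B2 T2 library had 7 reads where the other 3 had 8. Its gap of 1 read spans the whole range of the set. Whole read counts of which 3 tie and 1 differs are always picked out in this way, so the flag carries little weight. The Zfp944 peak, at 6 reads in all 4 libraries, has no range to check.

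Outside the counted strand, 10 C2C12 shared peaks lay on the strand of a Zfp gene itself, in introns of 7 genes, so that 96.4% of the shared peaks in Zfp genes were on the opposite strand (89.7% in other genes). Zfp708, which has no peak on the opposite strand, held 4 of the 10 within chr13:67190421-67190900, the highest with 22 and 18 reads. Zfp423 held 1 with 15 and 16 reads and Zfp286 held 1 with 14 and 14 reads, inside the gene SNORA67. Zfp101 held 1 with 14 and 19 reads, whose sequence occurs 273 times. In the ASC libraries 17, 18, 12 and 29 peaks lay on the strand of a Zfp gene, beside 24, 26, 32 and 64 on the opposite strand, and of the ASC shared peaks 4 and 5 did.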

How the results depend on the processing

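Of 94 alternative values, some of them chosen after seeing the data, 57 stayed near the reported value (counts within 1.5 times, shares and densities within their 95% interval) and 37 did not. Stricter peaks cut the counts most. At p of at most 0.0001, 0.00001 and at least 8 reads per bin, the Zfp genes with a C2C12 shared peak were 38, 20 and 39 (88 reported), their shared peaks 80, 29 and 83 (264), and the Zfp genes with an ASC shared peak 2, 1 and 0 (5). The latter were 8 with either strand, 3 with sequences found once and 3 away from other genes. Counts of genes with a peak were not repeated over all protein-coding genes under these settings. The share of Zfp peaks found once was 93.1% at p of at most 0.00001. The share of all Zfp peaks in a long last coding exon (37.9%) was 47.5%, 41.4% and 48.2% under the stricter rules.

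The comparison with other genes was repeated over Zfp genes with such an exon (54.3%), a choice made after seeing the data. Under the stricter rules it was 63.3%, 57.1% and 64.5%, against 46.4%, 48.4% and 49.3% in other genes with such an exon (43.6% reported). With either strand it was 51.8% against 42.0%, with sequences found once 61.0% against 40.2%, with a shorter and a longer minimum for the exon 52.3% against 37.8% and 57.5% against 53.7%, and with the longest coding transcript 56.2% against 47.0%. The Zfp share was higher in each, but at p of at most 0.00001 and with the longer minimum its 95% interval held the share of other genes. The density of genes with 5 or more linkers and a shared peak elsewhere moved from 0.277 to 0.641 per kb where that peak had to be placeable.

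Without C2C12 replicate 1 or 2, the single lists gave 150 to 166 Zfp genes, 621 to 706 peaks and 79.3% to 84.4% found once. The long exon share was then 31.0% to 32.5% of all Zfp peaks, and over genes with such an exon 44.9% to 45.4% for Zfp genes and 36.6% to 37.9% for others. Without any 1 ASC library, 5 to 6 Zfp genes were left. No paired analysis was possible because the values are counts of listed peaks with no test between groups. Peaks of 4 to 6 reads limit what an absence can mean.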
